A study of Mus musculus with 6 samples.

Results

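The genes described here encode the subunits of the proteasome. They were taken as every gene whose probe sets carry a single symbol beginning with Psma, Psmb, Psmc, Psmd or Psme, except Psmb8 and Psmb9, and each gene is given by its brightest probe set. This gave 42 genes on 88 probe sets, out of 18193 genes with a single symbol on the array. Of the 42 genes, 40 had a mean normalized intensity of 50 or more in at least 1 group and were tested, beside 12213 tested genes in all. The 2 that did not reach that level were Psma8 and Psmb11, whose products replace standard subunits in testis and thymus. The prefix also took Psmc3ip, which encodes a partner of DNA recombinases, and Psme3ip1, which encodes a binding partner of the Psme3 protein, and neither is a proteasome subunit. That leaves 38 tested genes with a role in the proteasome.

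The fluoxetine group (FLX) drank fluoxetine, a selective serotonin reuptake inhibitor, at 0.167 mg per ml in 1% saccharine, and the vehicle group (VEH) drank 1% saccharine alone, both for 15 to 18 days. Every mouse in both groups carried the S100a10 bacTRAP transgene of line ES691 and lacked p11, the protein made from S100a10, on a background crossed from FVB to C57BL/6 for 3 to 5 generations. The transgene puts an affinity tag on ribosomes of cells in which the S100a10 promoter is active, so that ribosome-bound mRNA of those cells can be pulled out of cortex, and per the submitters it also labels some cells that are not neurons. Each group had 3 arrays described as biological replicates. Neither age nor the number of mice behind an array is stated in the labels, and wild-type mice were not analysed here.

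The proteasome is the large protease that degrades proteins marked with ubiquitin in the cytosol and nucleus. Its core particle is a barrel of alpha and beta rings with the protease sites inside, and its regulatory particle recognises ubiquitin, removes it, and unfolds the substrate with a ring of ATPases. Subunit genes are known to be induced together through the transcription factor Nrf1 (gene Nfe2l1) when proteasome activity is short, and neurons use the proteasome in the turnover of synaptic proteins. A separate set of core and activator subunits is induced by interferon.

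In both groups the third replicate array lay apart from the rest. Across tested probe sets they correlated with the other arrays at r = 0.867 to 0.916 and with each other at 0.973, against 0.987 to 0.995 among replicates 1 and 2 of both groups. The deleted gene, S100a10, ranged from 349 to 3111 over the 6 arrays on a probe set whose place relative to the deleted part is unknown here, so it does not check the genotype. All 10 pan-neuronal markers and all 8 layer 5 pyramidal markers on the array passed the level of 50, as did 14 of 14 leptomeningeal and fibroblast markers and 10 of 12 microglia and macrophage markers. The leptomeningeal markers summed to between 5390 and 122786 in FLX arrays and between 12092 and 115222 in VEH arrays, and the replicate 3 array was the lowest in both groups. Ribosome-bound RNA from bulk tissue cannot tell fewer cells of a type from less RNA per cell. The log2 ratio of 3′ to 5′ signal for Gapdh and Actb, a measure of RNA integrity, was 2.08 to 2.20 in FLX arrays and 2.18 to 2.33 in VEH arrays, and it was lower in the FLX array for each of the 3 replicate numbers. Its part in the differences below was not tested.

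No proteasome gene differed between FLX and VEH beyond the spread between arrays. In limma's moderated test over 22200 probe sets, 0 of the 40 genes passed an adjusted p of 0.05, against 0% of all genes tested, and the adjusted p was 0.9998 or more for each. At an unadjusted p under 0.05 the count was 0 of 40, against 0.303% of all genes. With the replicate number as a block it was again 0 of 40, against 7.64% of all genes and 7.95% of all probe sets. Without the block 0.374% of all probe sets had such a p. The log2 differences, FLX minus VEH, ran from -0.58 for Psmb3 to 0.39 for Psmd2, with a median of 0.06 beside 0.05 over all genes tested. In 24 of the 40 genes the difference was positive, which is near the 58.1% of all genes for which it was. Leaving out the 2 genes that are not subunits gave a median of 0.07 over 38 genes.

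The precision of these differences is limited by 3 arrays a group, and it also depends on the fit, which here had no term for replicate number. Standard errors ran from 0.18 to 0.60 with a median of 0.21, and the 95% interval held 0 for all 40 genes. For 38 of them the whole interval lay within 1 log2 unit of 0, which is a 2-fold difference either way, whereas this was so for 6531 of the 12213 genes tested. The exceptions were Psmb3, with an interval from -2.04 to 0.88, and Psme1, with one from -1.04 to 0.46. With the replicate number as a block, the standard error was 0.35 for Psmb3 and 0.16 for Psme1. The intervals come from the fit without the block and are not adjusted for the number of probe sets. They therefore give no limit of detection, and small differences may have been missed. The plot of cumulative differences shows the proteasome genes packed nearer to 0 than genes at large: 38 of the 40 lay within 0.3 of 0, against 77.7% of all genes. Brightness of the probe sets was not matched in that comparison, and its part was not tested.

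**Figure D1:**
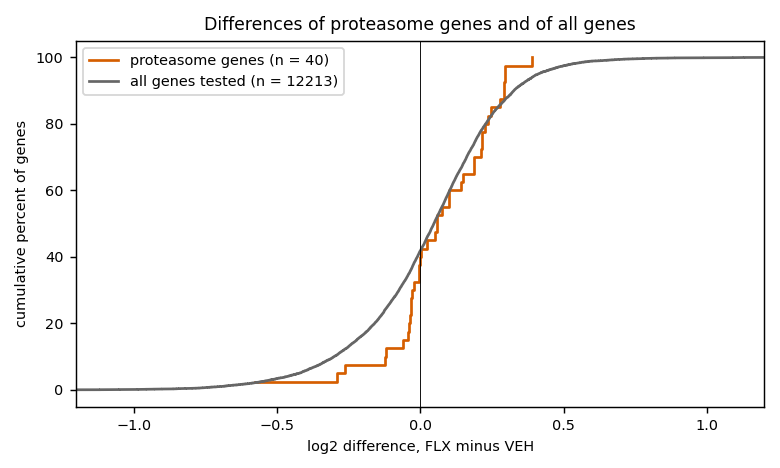
Cumulative percent of genes (vertical axis) against the log2 difference, FLX minus VEH (horizontal axis), for the 40 proteasome genes and for all 12213 genes tested. Both curves cross 0 near the same height, since 24 of 40 proteasome genes and 58.1% of all genes had a positive difference, and the proteasome curve is the steeper one, with Psmb3 at -0.58 alone on its left.

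Promoter sequence was read for the members from RefSeq (GRCm38.p6), as 250 bases before and 50 bases after each annotated start. Of the 42 genes, 35 were matched, with 38 promoters. Those not matched were Psma8, Psmb1, Psmb2, Psmb7, Psmc3, Psmd3 and Psmd7. The 250 bases before the start are printed for Psmd2, Psmd1, Psma3 and Psmd12, which had positive differences. Psme3, Psmc6 and Psma1 were matched and had larger differences than Psma3, but are not printed. Also printed are those of Psmb3, which had the largest negative difference and the highest spread. The last is Psme1, an interferon-inducible gene that was below VEH at each replicate number. Capitals mark matches, on either strand, to CCGGAAG (a motif of ETS factors), CCAAT (NF-Y), TGACNNNGC (the core of the antioxidant response element bound by Nrf1 and Nrf2) and the interferon-stimulated response element, searched as GAAA, any 2 bases and GAAA again. These motifs were chosen after the values of the genes were known. The stretches lie at chr16:20651402-20651651 on the plus strand for Psmd2, chr1:86064369-86064618 on the plus strand for Psmd1, chr12:70974373-70974622 on the plus strand for Psma3, chr11:107479278-107479527 on the plus strand for Psmd12, chr11:97703184-97703433 on the plus strand for Psmb3 and chr14:55578244-55578493 on the plus strand for Psme1.
Psmd2: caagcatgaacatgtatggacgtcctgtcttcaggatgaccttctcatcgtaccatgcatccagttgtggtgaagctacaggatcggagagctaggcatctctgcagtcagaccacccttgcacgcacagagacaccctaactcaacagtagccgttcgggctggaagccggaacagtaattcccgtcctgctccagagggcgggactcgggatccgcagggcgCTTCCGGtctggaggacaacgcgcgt
Psmd1: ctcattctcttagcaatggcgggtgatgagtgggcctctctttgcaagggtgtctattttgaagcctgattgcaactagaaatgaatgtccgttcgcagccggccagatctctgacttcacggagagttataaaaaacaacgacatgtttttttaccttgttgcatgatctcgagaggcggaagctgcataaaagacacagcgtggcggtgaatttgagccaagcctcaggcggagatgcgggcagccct
Psma3: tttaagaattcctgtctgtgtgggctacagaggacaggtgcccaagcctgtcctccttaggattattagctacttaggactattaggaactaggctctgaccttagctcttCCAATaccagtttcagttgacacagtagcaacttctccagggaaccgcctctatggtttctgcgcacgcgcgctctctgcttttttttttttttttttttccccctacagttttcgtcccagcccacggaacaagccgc
Psmd12: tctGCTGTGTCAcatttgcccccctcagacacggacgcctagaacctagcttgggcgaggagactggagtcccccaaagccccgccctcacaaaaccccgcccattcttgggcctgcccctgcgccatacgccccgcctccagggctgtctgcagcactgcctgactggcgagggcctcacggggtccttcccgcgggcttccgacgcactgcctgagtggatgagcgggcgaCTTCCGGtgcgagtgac
Psmb3: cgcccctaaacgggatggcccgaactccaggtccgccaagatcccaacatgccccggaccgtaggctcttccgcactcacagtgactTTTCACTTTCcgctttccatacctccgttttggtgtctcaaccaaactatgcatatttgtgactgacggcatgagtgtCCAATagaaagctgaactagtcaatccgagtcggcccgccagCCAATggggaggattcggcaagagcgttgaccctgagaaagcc
Psme1: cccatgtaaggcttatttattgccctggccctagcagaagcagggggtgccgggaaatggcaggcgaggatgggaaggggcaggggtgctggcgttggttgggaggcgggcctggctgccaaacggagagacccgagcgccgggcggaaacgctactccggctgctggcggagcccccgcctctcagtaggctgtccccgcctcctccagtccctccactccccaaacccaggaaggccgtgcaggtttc

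The 38 matched promoters include those of Psmc3ip and Psme3ip1, which are not subunit genes, and of Psmb11, which was not tested, so shares are given over the 34 promoters of the 32 tested genes with a role in the proteasome. The ETS letters CCGGAAG stood in 13 of these 34, which is 38.2%, against 16.1% of the 12769 promoters of tested genes and 8.86% of all 32851 promoters in the table. They include Psmd2, where the match begins 26 bases before the start, and Psmd12, where it begins 17 bases before it. CCAAT stood in 12 of the 34, which is 35.3%, against 37.0% of the promoters of tested genes. The letters TGACNNNGC stood in 6, those of Psmb5, Psmb6, Psmc6, Psmd12, Psmd9 and Psme4, which is 17.6% against 14.0% of the promoters of tested genes. The interferon-stimulated element stood in 4, those of Psmb3, Psmd4, Psmd9 and Psme1, which is 11.8% against 2.81%. In Psme1 it begins 10 bases after the start and so lies outside the printed stretch. Psmd1 had none of the 4 motifs. A match is a run of letters and was not tested as a binding site, and none of the motifs contains another.

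The alpha ring forms the gate of the core particle, through which substrates enter. None (0) of its 7 tested genes passed the test, 5 had a positive difference, and the median was 0.14. Psma1 had 7951, 7309 and 10185 in the FLX arrays, given here and below in the order of replicates 1 to 3, against 7382, 6958 and 7058 in the VEH arrays. FLX replicate 3 was the highest of the 6 arrays FLX replicate 1 lay just above the VEH arrays, and FLX replicate 2 lay among them. The log2 difference was 0.24 (SE 0.21, interval -0.27 to 0.74). Psma3 had 21325, 20643 and 21945 in FLX arrays, against 20325, 20456 and 14587 in VEH arrays. Here the groups did not overlap, but FLX replicate 2 and VEH replicate 2 were nearly equal and the distance came from the low VEH replicate 3 array, with a log2 difference of 0.22 (SE 0.21). The other 5 genes, Psma2, Psma4, Psma5, Psma6 and Psma7, had differences from -0.03 to 0.19.

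The catalytic beta subunits carry the threonine residues that cut peptide bonds. Psmb5, the chymotrypsin-like subunit and the main target of proteasome inhibitors, had 17964, 16882 and 22843 in FLX arrays, against 16758, 17597 and 20888 in VEH arrays, with a log2 difference of 0.06 (SE 0.21). In both groups replicate 3 was the highest array and the groups overlapped. Psmb6, the caspase-like subunit, had 12390, 11707 and 13859 in FLX arrays, against 12239, 11948 and 14417 in VEH arrays, with a difference of -0.02 (SE 0.19) and again the highest values in replicate 3. Psmb7, the trypsin-like subunit, had 4329, 3814 and 5171 in FLX arrays, against 3403, 3627 and 3729 in VEH arrays. All FLX arrays lay above all VEH arrays for Psmb7, by 0.30 in the mean log2 value (SE 0.20, interval -0.19 to 0.78). The direction of the Psmb5 and Psmb6 differences depended on which array was left out.

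The beta subunits without a protease site close the ring. Of these 4 genes, 0 passed the test and 1 had a positive difference. Psmb3 had 9481, 6455 and 9506 in FLX arrays, against 8068, 7449 and 32150 in VEH arrays. The VEH replicate 3 array stood alone, over 3-fold above each of the other 5 arrays, which was so for 0.106% of all genes tested, and the other arrays overlapped. A second probe set of Psmb3 had 2105, 1399 and 1638 in FLX arrays and 1532, 1521 and 3101 in VEH arrays, so that VEH replicate 3 was the highest there too. The log2 difference of -0.58 (SE 0.60) turned to 0.11 without that array. Psmb2 had 953, 828 and 1494 in FLX arrays and 895, 902 and 1395 in VEH arrays, with replicate 3 highest in both groups and a difference of 0.02 (SE 0.32), which was -0.0012 when each array was centred on its median. Psmb1 and Psmb4 had differences of -0.00 and -0.01 on their brightest probe sets.

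**Figure D2:**
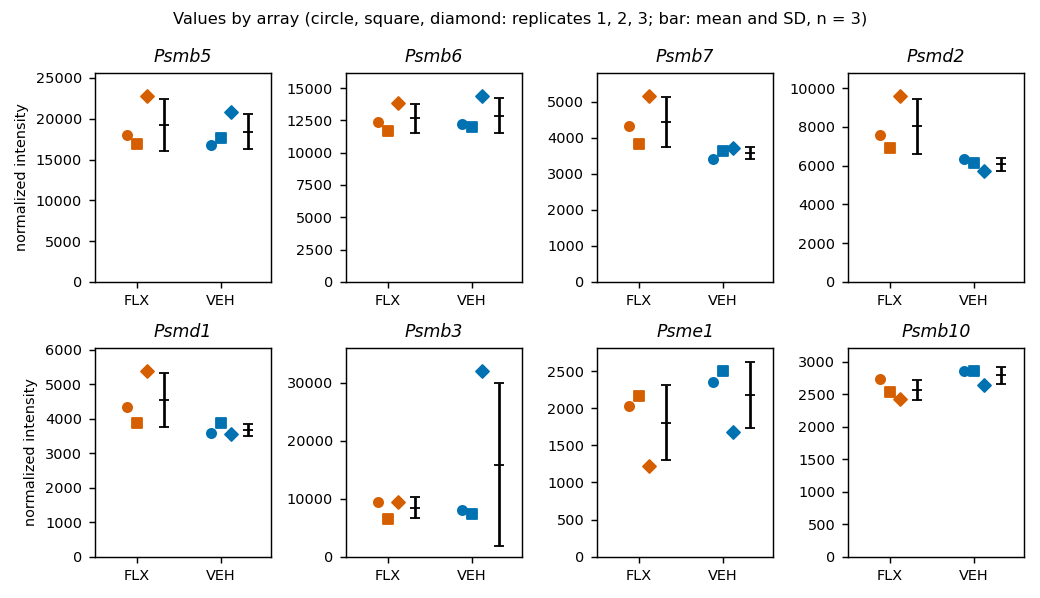
Normalized intensity (vertical axis, linear, from 0) in the 3 FLX and 3 VEH arrays for 8 genes; circles, squares and diamonds are replicates 1, 2 and 3, and bars give the mean and SD (n = 3). FLX lies above VEH without overlap for Psmb7, Psmd2 and Psmd1, the VEH replicate 3 array of Psmb3 is alone at 32150, and Psme1 is lowest in replicate 3 of both groups, at 1224 and 1674.

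The ATPases Psmc1 to Psmc6 unfold substrates and open the gate of the core. Of the 6 genes, 5 had a positive difference and 0 passed the test, with a median of 0.16. Psmc6 had 8599, 7097 and 10474 in FLX arrays, against 7664, 7168 and 6981 in VEH arrays, which overlap, with FLX replicate 3 highest and a difference of 0.25 (SE 0.22). Psmc1 had 8856, 8274 and 10149 in FLX arrays, against 7283, 7684 and 8525 in VEH arrays. Psmc1 was higher in FLX at each replicate number, by 0.28, 0.11 and 0.25, which made it the most even of the positive differences in this ring, although FLX replicate 2 lay below VEH replicate 3. The other 4 ran from -0.06 for Psmc4 to 0.21 for Psmc5.

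The base of the regulatory particle also holds Psmd1 and Psmd2, the large scaffolds on which ubiquitin receptors dock, and Psmd4, a ubiquitin receptor. All 3 were higher in FLX at each replicate number, with a median difference of 0.29, and 0 passed the test. Psmd2 had the largest positive difference of all proteasome genes, with 7560, 6890 and 9615 in FLX arrays against 6335, 6157 and 5699 in VEH arrays. The groups did not overlap for Psmd2, and the difference was 0.39 (SE 0.21, interval -0.12 to 0.90), made of 0.26, 0.16 and 0.75 at replicate numbers 1 to 3. Psmd1 had 4330, 3892 and 5399 in FLX arrays, against 3591, 3881 and 3569 in VEH arrays. Its groups did not overlap either, but FLX replicate 2 and VEH replicate 2 differed by 0.00 on the log2 scale, and the mean difference was 0.29 (SE 0.21). Psmd4 had a difference of 0.15 (SE 0.22) with overlapping groups.

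The lid removes ubiquitin chains through Psmd14, a metalloprotease, held in place by structural subunits. Of the 8 lid genes taken by the prefix, 5 had a positive difference, the median was 0.09, and 0 passed the test. Psmd7, the partner of Psmd14, had 1127, 1264 and 1491 in FLX arrays, against 1013, 1138 and 1006 in VEH arrays, with overlap at FLX replicate 1 and a difference of 0.29 (SE 0.20). Psmd12 had 7698, 6863 and 9170 in FLX arrays, against 6697, 7600 and 5327 in VEH arrays. That is a difference of 0.28 (SE 0.23) in which replicate number 2 went the other way, at -0.15, and replicate number 3 reached 0.78. Psmd14 itself differed by 0.22 (SE 0.23), and Psmd8 had the most negative difference of these 8 genes at -0.12 (SE 0.21).

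Psmd5, Psmd9 and Psmd10 encode chaperones that help assemble the base and are absent from the finished particle. Their differences were 0.19 (SE 0.24), -0.03 (SE 0.18) and -0.04 (SE 0.21). Psmd5 had 1388, 1110 and 1775 in FLX arrays, against 1287, 1093 and 1321 in VEH arrays, and Psmd10 had 1262, 1065 and 1007 in FLX arrays, against 1330, 1058 and 1047 in VEH arrays. Both overlapped between the groups. Psmc3ip, one of the 2 genes that are not subunits, had 289, 290 and 234 in FLX arrays and 385, 282 and 311 in VEH arrays, a difference of -0.26 (SE 0.22). Psme3ip1 had 1507, 1267 and 1616 in FLX arrays and 1501, 1428 and 1551 in VEH arrays, a difference of -0.04 (SE 0.19).

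Activators of the Psme group can replace the regulatory particle at the ends of the core. Psme3, which forms the nuclear activator, had 1387, 1074 and 1477 in FLX arrays, against 1116, 1026 and 1038 in VEH arrays, with a difference of 0.30 (SE 0.21). It was higher in FLX at each replicate number, by 0.31, 0.07 and 0.51, although FLX replicate 2 lay below VEH replicate 1. Psme4, which encodes another nuclear activator, differed by 0.06 (SE 0.20). Psme1, a subunit of the interferon-inducible activator, had 2026, 2169 and 1224 in FLX arrays, against 2350, 2507 and 1674 in VEH arrays. The groups overlapped, the FLX array was the lower at each replicate number, by -0.21, -0.21 and -0.45, and the mean difference was -0.29 (SE 0.31). Psmb10, the interferon-inducible counterpart of Psmb7, had 2732, 2528 and 2427 in FLX arrays, against 2858, 2864 and 2643 in VEH arrays, a difference of -0.12 (SE 0.18). It too was lower in FLX at each replicate number, with overlap between FLX replicate 1 and VEH replicate 3.

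Counted by replicate number, 12 of the 40 genes were higher in FLX in all 3 pairs, against 20.2% of all genes tested, and 4 were lower in all 3 pairs, against 13.5%. The 12 were Psma1, Psma3, Psma4, Psmb7, Psmc1, Psmd1, Psmd2, Psmd4, Psmd5, Psmd7, Psmd14 and Psme3. The 4 were Psmb10, Psmc4, Psmd9 and Psme1. All FLX arrays lay above all VEH arrays for 4 genes, Psma3, Psmb7, Psmd1 and Psmd2, against 2.62% of all genes tested, and below them for 0 genes, against 1.65%. The medians of the 40 genes were 0.09, -0.02 and 0.13 at replicate numbers 1 to 3, beside 0.01, -0.01 and 0.15 over all genes. In the plot of all genes by replicate number the third pair lies furthest from 0 for most genes of the alpha ring and the base, and the second lies nearest to it. Without both replicate 3 arrays the median was 0.02, with 23 of 40 genes positive.

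**Figure D3:**
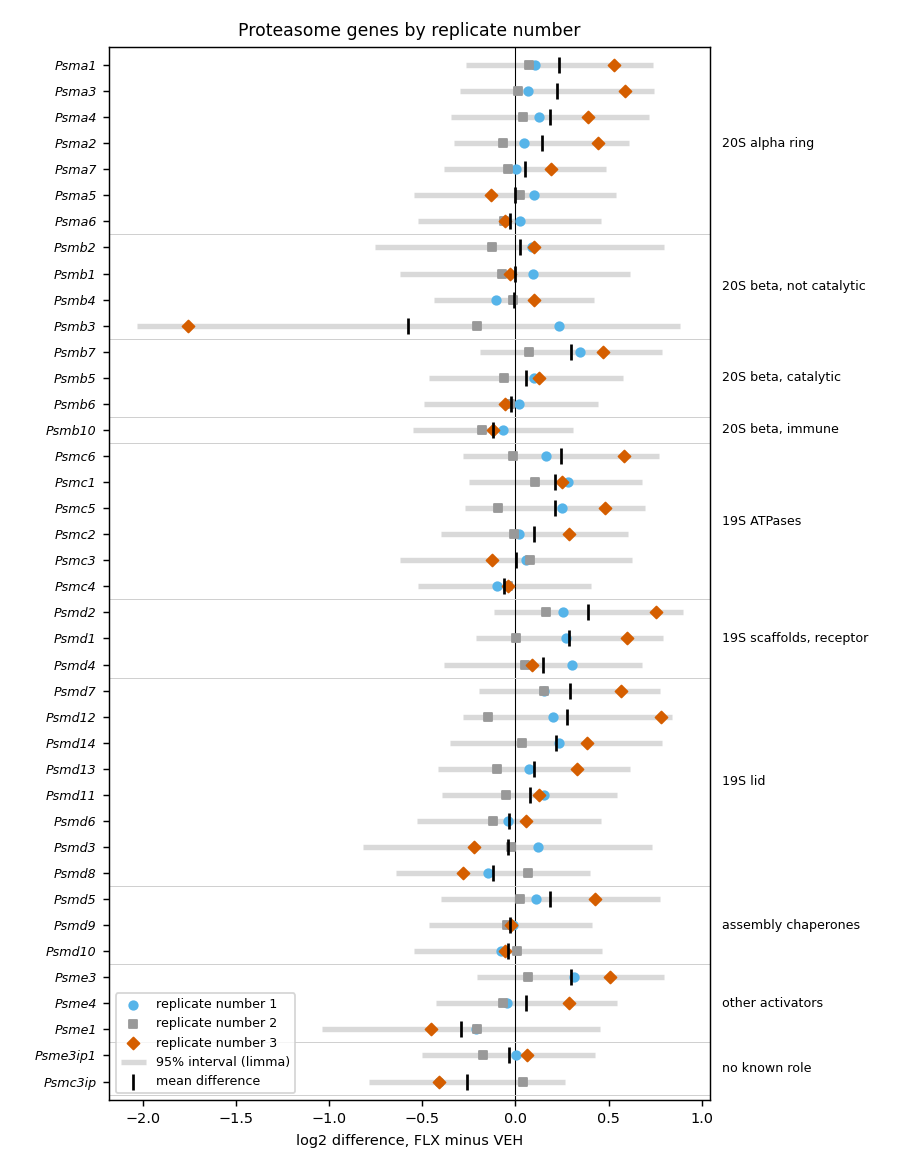
Log2 difference, FLX minus VEH (horizontal axis), of the 40 proteasome genes, grouped by role from top to bottom; circles, squares and diamonds are the differences at replicate numbers 1, 2 and 3, black ticks their mean, and grey bars limma's 95% interval. Every grey bar crosses 0, the diamonds spread furthest, and Psmb3 has a diamond at -1.76.

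Most proteasome genes were higher in replicate 3 than in replicates 1 and 2 in FLX, and fewer were so in VEH. In FLX, replicate 3 lay above the mean of replicates 1 and 2 in 34 of 40 genes, against 53.1% of all genes tested, with a median log2 difference of 0.29 beside 0.05 over all genes. In VEH it did so in 22 of 40, against 45.9%, with a median of 0.04 beside -0.10. FLX replicate 3 was the highest of the 6 arrays for 25 of the 40 genes, against 30.7% of all genes, and VEH replicate 3 for 7, against 2441 of the 12213 genes tested. Core genes of the standard alpha and beta rings were above replicates 1 and 2 in 14 of 14 cases in FLX and 9 of 14 in VEH. Genes of the regulatory particle without its chaperones were so in 16 of 17 cases in FLX and in 10 of 17 in VEH. Psmd8 was the exception in FLX, at -0.41. The pattern was not particular to the proteasome. Genes of the CCT chaperonin, another cytosolic complex, were so in 8 of 8 cases in FLX and 4 of 8 in VEH. Shuttle factors and Vcp partners were so in 9 of 10 in each group. Ribosomal protein genes went the other way, at 4 of 43 in FLX and 9 of 43 in VEH.

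In 6 of the 40 genes replicate 3 lay below replicates 1 and 2 in both groups. The interferon-inducible Psme1 was lower there by -0.78 in FLX and -0.54 in VEH, and Psmb10 by -0.11 in both, where the VEH value is close to the median of -0.10 over all genes. The other 4 are not interferon-inducible immune subunits: Psmd8 of the lid (-0.41 in FLX and -0.17 in VEH), the chaperones Psmd10 (-0.20 and -0.18) and Psmd9 (-0.16 and -0.17), and Psmc3ip (-0.31 and -0.084).

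Markers of several cell types also differed in replicate 3. Microglia and macrophage markers, of which 10 of 12 were tested (without Trem2 and Mrc1), were lower there by medians of -0.59 in FLX and -1.59 in VEH, with summed levels of 5575 to 11773 in FLX arrays and 4087 to 12268 in VEH arrays. Leptomeningeal and fibroblast markers were lower by medians of -3.79 in FLX and -3.46 in VEH. Endothelial markers (-0.36 and -1.45, with 5 of 10 tested) and markers of pericytes and smooth muscle (-2.01 and -2.47, with 5 of 8 tested) had lower medians too. Of the 5 pericyte and smooth muscle markers, 2 were higher in both groups. Oligodendrocyte markers, of which 10 of 11 were tested, were higher by medians of 1.05 in FLX and 0.40 in VEH. Of the 10, 6 were higher in both groups and 3 were lower in both. Their summed level was highest in replicate 3 of both groups. It ranged from 26745 to 73711 in FLX arrays and from 26295 to 68724 in VEH arrays. Mbp and Cnp alone had 27004 and 37344 in FLX replicate 3. Interneuron markers were higher by medians of 0.75 in FLX and 0.69 in VEH, and pan-neuronal markers by 0.54 and 0.47. Of 8 layer 5 markers, 4 were higher in both groups and 4 were lower in both, with medians of 0.051 and 0.18. Astrocyte markers were split: of 14, 6 were higher in replicate 3 of both groups and 5 were lower in both. Their medians were 0.36 in FLX and -0.48 in VEH. The part of these cell types in the levels of proteasome genes was not tested.

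**Figure D4:**
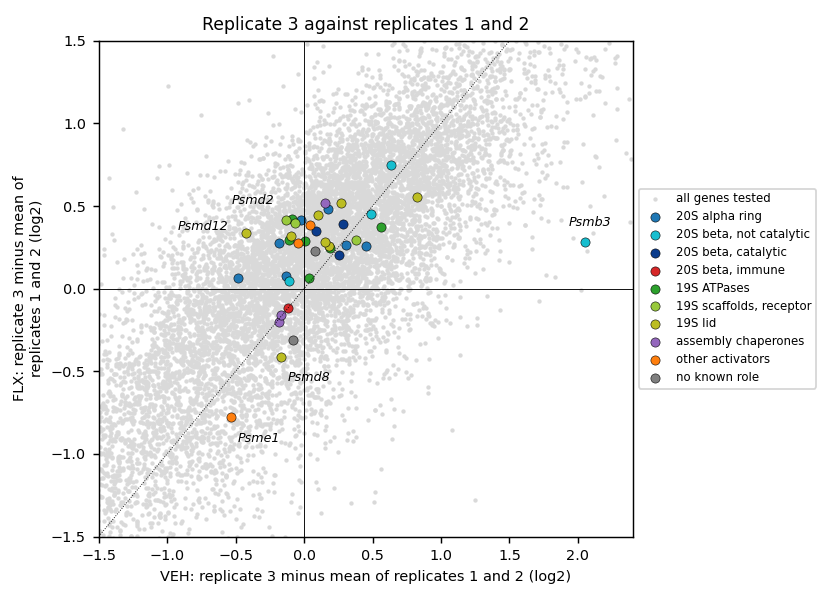
Log2 difference of replicate 3 from the mean of replicates 1 and 2 in FLX (vertical axis) and in VEH (horizontal axis), for proteasome genes coloured by role and for all genes tested in grey; the dotted line marks equal values and grey points outside the axes are not drawn. Most proteasome genes lie above 0 on the vertical axis (34 of 40), Psme1 lies at -0.78 and -0.54, and Psmb3 lies far to the right at 2.05.

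Several members are measured by more than 1 probe set, and these did not give equal differences. Of 17 genes with at least 2 tested probe sets, the next brightest had the more positive difference in 15, by a median of 0.08, and the sign was the same in 12. Psma5 had a difference of -0.00 on its brightest probe set, at 14831 to 20833 over the 6 arrays, and 0.26 on the next, at 3944 to 6085. Psmd6 had -0.03 on the brightest and 0.25 on the next. The exceptions were Psmd9, at -0.03 and -0.25, and Psmb1, at -0.00 and -0.74. For Psmb1 the next brightest probe set gave 120, 104 and 133 in FLX arrays and 142, 106 and 512 in VEH arrays, so that VEH replicate 3 stood alone there, as it did for Psmb3, while the brightest gave 7028, 5906 and 8797 in FLX arrays and 6587, 6219 and 8973 in VEH arrays. Averaging the probe sets of each gene, 28 of 40 genes had a positive difference and the median was 0.06.

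**Figure D5:**
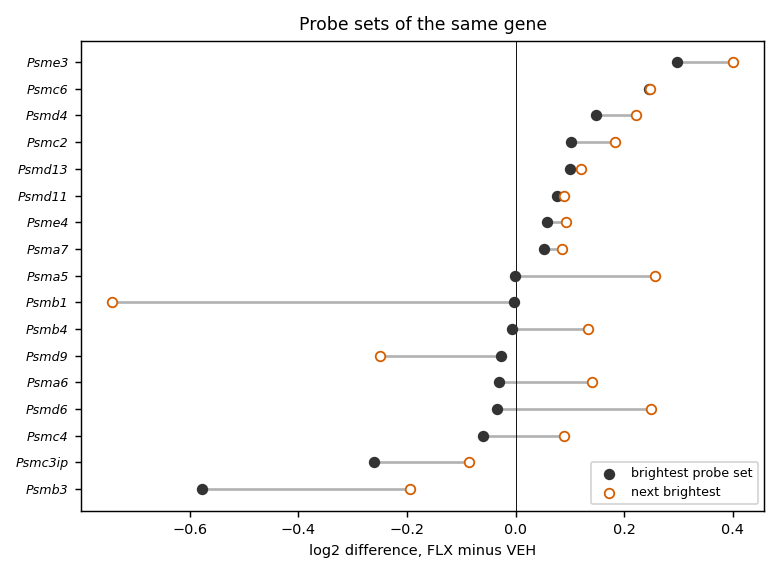
Log2 difference, FLX minus VEH (horizontal axis), on the brightest (filled) and the next brightest (open) tested probe set of the 17 proteasome genes that have both. The open circle lies to the right in 15 genes and to the left in Psmb1 (-0.74) and Psmd9 (-0.25).

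Among genes that work with the proteasome, 0 of any list passed the test. Of 13 tested assembly factors, receptors and deubiquitinases, 7 had a positive difference (median 0.02), among them Uchl5, a deubiquitinase of the regulatory particle, at 0.27 (SE 0.24), and Zfand5, a proteasome-stimulating protein, at 0.19 (SE 0.18). The most negative were Psmg4 at -0.37 (SE 0.39) and Psmg3 at -0.32 (SE 0.32), which encode chaperones of core assembly. All FLX arrays lay above all VEH arrays for 2 of the 13, Zfand5 and Psmg2, against 2.62% of all genes. Of 10 shuttle factors and Vcp partners, which bring ubiquitinated proteins to the proteasome, 9 were positive (median 0.04), and 1 of the 10, Ubqln1, lay above VEH without overlap. Ubqln1 had 7403, 7180 and 9544 in FLX arrays, against 6108, 6710 and 6784 in VEH arrays, at 0.29 (SE 0.20), but at -0.02 on the probe set left when those ending in x_at or s_at are dropped. Ubqln2 was at 0.25 (SE 0.22), and at -0.26 when all its probe sets were averaged. Of 24 ubiquitin-conjugating and related enzymes 19 were positive (median 0.10), with Huwe1, a ubiquitin ligase, at 0.27 (SE 0.19) and Ube2r2, a conjugating enzyme, at -0.31 (SE 0.21). Of these 24, Huwe1 and Ube3c, another ubiquitin ligase, lay above VEH without overlap, against 2.62% of all genes. None (0) lay below it, against 1.65%.

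The transcription system of Nrf1 and Nrf2 had 7 of 16 genes positive and a median of -0.06. Maff, a small Maf partner, had 71.4, 83.5 and 16.9 in FLX arrays, against 106, 81.6 and 67.5 in VEH arrays, and Hmox1, a target of Nrf2, had 53.6, 52.9 and 55.8 in FLX arrays, against 60.7, 58.4 and 87.7 in VEH arrays. Hmox1 was at -0.32 (SE 0.23) and lay lower in FLX without overlap, which was so for 1.65% of all genes tested. Both Maff and Hmox1 are near the level of 50 below which the submitters advise against use. In the same list 1 gene, Sqstm1, lay higher in FLX without overlap, against 2.62% of all genes tested. Sqstm1, an autophagy receptor and target of Nrf2, had 8484, 9405 and 8419 in FLX arrays, against 7078, 7985 and 7528 in VEH arrays, at 0.22 (SE 0.18). Nfe2l1 itself differed by -0.21. The CCT chaperonin, another multi-subunit complex of the cytosol, had 7 of 8 genes positive, against 58.1% of all genes tested, and a median of 0.16. Tcp1 was at 0.37 (SE 0.20) and Cct5 at 0.31 (SE 0.19). Of the 8 genes, 3 lay above VEH without overlap (Tcp1, Cct5 and Cct8), against 2.62% of all genes tested. Ribosomal protein genes, taken by their prefix, had 9 of 43 positive and a median of -0.19. These medians stand beside 0.06 for the proteasome and 0.05 for all genes tested, and no difference between the lists was tested.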

How the data were processed

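The authors deposited 1 intensity per probe set and array, linear and normalized. The submitters' processing notes name GCRMA, without a version. Per the labels' protocols, 15 ng of RNA was amplified in 2 cycles and biotin-labelled. Values ran from 1.60 to 76587. Affymetrix controls (64 probe sets) were left out. Gene names come from the platform annotation, and all 42 members had the same symbol in RefSeq. Probe sets with a group mean of 50 or more in at least 1 group were tested (22200). The difference between FLX and VEH was fitted to log2 intensities with limma 3.58.1 (R 4.3.3), two-sided, without a pseudocount and with no term but treatment, with Benjamini-Hochberg adjustment over all tested probe sets at 0.05. The brightest probe set of a gene had the highest mean log2 value. Levels of different probe sets are not comparable. The labels do not say whether the replicates came from separate animals or pools, so p-values measure the spread between these arrays.

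The labels number the arrays 1 to 3 in each group. Deviations from group means correlated at r = 0.70, 0.84 and 0.87 between equal numbers. The number was used as a block in an alternative fit. For FLX replicate 2 with VEH replicate 1 the r was 0.76, and for FLX replicate 1 with VEH replicate 2 it was 0.64. Replicate 3 lay apart in both groups, so replicates 1 and 2 share a deviation from their group mean. These correlations therefore cannot show that replicates 1 and 2 are paired by number. Named genes were the catalytic subunits, the 2 members of each role with the largest difference, members whose groups did not overlap, and the 2 genes with the smallest p in each other list. Other genes shown with values were chosen after these were seen. Psmb8 and Psmb9 form a list of their own and are given at the end. Of promoters, only those of some of these genes are shown. The members, lists and alternatives were chosen with earlier results of these data known. The fit was tested on simulated data. Figures were drawn with matplotlib 3.10.9.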

Additional observations from a re-analysis of the deposited data

How the results depend on the processing

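Under every alternative 0 proteasome genes passed the threshold. Over all probe sets the count of calls was also 0, except with the replicate block and 1 replicate number left out, where it ran from 0 (without number 3) through 1 (without number 1) to 86 (without number 2). The replicate block with all arrays changed no call, with a lowest adjusted p of 0.574 over all probe sets and 0.636 among members, and it raised the count at an unadjusted p under 0.05 over all probe sets to 1764, beside 83 without it. The median over proteasome genes was 0.06, and ran from 0.0094 (without FLX replicate 3) to 0.14 (without FLX replicate 2, and likewise without VEH replicate 3) with arrays left out. Without the probe sets ending in x_at or s_at it was 0.10 and with centred arrays 0.03. With array weights, whose estimation stopped before it converged, 31 of 40 genes were positive, 9 had an unadjusted p under 0.05, beside 6767 of 22200 probe sets, and the lowest adjusted p of a member was 0.0719.

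Signs of single genes were followed only for the named genes defined above, and among these the sign of the difference turned for 10. Over all 40 tested members, 24 differences were positive with all arrays. With arrays left out that count ran from 21 (without FLX replicate 3) to 33 (without FLX replicate 2). With array weights Psmb3 was at 0.24, Psmb6 at 0.0297, Psmd10 at 0.097, Psme3ip1 at 0.0398 and Psmb8 at -0.20. With arrays centred Psmb2 was at -0.0012. Without x_at and s_at probe sets Ubqln1 was at -0.022, and with the mean over a gene's probe sets Ubqln2 was at -0.26. With arrays left out the ranges were -0.23 to 0.23 for Psmb2, -0.98 to 0.11 for Psmb3, -0.074 to 0.15 for Psmb5, -0.0904 to 0.062 for Psmb6, -0.14 to 0.072 for Psmd10, -0.11 to 0.064 for Psme3ip1, -0.88 to 1.38 for Psmb8 and -1.07 to 0.32 for Psmb9. With the replicate block and 1 number left out, values of the other sign were -0.012 for Psmb2 (without number 1), -0.016 for Psmb2 (without number 3), 0.013 for Psmb3 (without number 3), 0.033 for Psme3ip1 (without number 2) and -0.24 for Psmb8 (without number 3). The cause was not tested. The 3 arrays a group limit the precision.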

Other observations

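Some proteasome genes stayed outside the comparison. Psma8, the testis alpha subunit, lay between 21.2 and 30.5 in FLX arrays and between 21.0 and 33.4 in VEH arrays, under the level of 50. Psmb11, the thymus beta subunit, had 15.2, 15.0 and 15.6 in FLX arrays and 14.9, 15.0 and 26.8 in VEH arrays. One probe set is shared by Psme2 and Psme2b, the partner of Psme1 in the interferon-inducible activator and its near copy, and cannot be assigned to either. It had 4098, 4951 and 1740 in FLX arrays and 6154, 5319 and 1423 in VEH arrays, lowest in replicate 3 of both groups.

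The interferon-inducible catalytic subunits that the prefix rule leaves out also had low replicate 3 values on their brightest probe sets. Psmb8 had 387, 418 and 107 in FLX arrays and 460, 491 and 21.4 in VEH arrays, a log2 difference of 0.62 (SE 1.32), which was -0.88 without VEH replicate 3. Psmb9 had 445, 409 and 101 in FLX arrays and 556, 552 and 131 in VEH arrays, lower in FLX at each replicate number, with a difference of -0.38 (SE 0.81). Neither passed limma's threshold.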
